A study of Bos taurus with 8 samples.

Results

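The EGF receptor family is represented on the array by 18 probes out of 43653 that were not controls. They are all the probes whose gene name in the scanner files is EGFR, ERBB2, ERBB3, AREG, EREG, HBEGF, TGFA, BTC, NRG1 or ERRFI1. The 18 probes belong to 7 of those 10 genes, among 24857 gene names on the array: EGFR, ERBB3, BTC and ERRFI1 have 3 probes each, NRG1 has 4, and EREG and HBEGF have 1 each. No probe carries the name ERBB2, AREG or TGFA, and probes that reach those genes in another way are described apart from the 18. All 18 were well above background on at least 2 of the 8 arrays and entered the test of 30702 probes.

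The receptors of this family sit in the plasma membrane and act in pairs: a ligand binds the outer part of one receptor, the receptor pairs with another, and the kinase domains add phosphate to the tails, which then recruit adaptors that switch on RAS, ERK and PI3K signalling. Amphiregulin, epiregulin, betacellulin, transforming growth factor alpha and heparin-binding EGF-like growth factor are made as membrane proteins, are released by cell surface proteases and bind EGFR, whereas neuregulin 1 binds ERBB3 and ERBB4. In the mammary gland amphiregulin drives outgrowth of the ducts, and neuregulin and ERBB4 take part in the formation and function of milk-producing alveoli.

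The study used primary bovine mammary epithelial cells and short hairpin RNAs (shRNAs) against EEF1D, whose product, eEF1Bδ, is part of the complex that reloads elongation factor 1A during translation. The EEF1D-1357 group has 3 arrays, the EEF1D-1893 group has 3 arrays, and the control group, labelled as receiving no shRNA, has 2 arrays. All groups share the same kind of source: a Holstein cow in lactation gave the gland tissue, and cells of the fifth passage were used. The labels name no control hairpin and do not say how the hairpins were delivered. They also leave unsaid whether each replicate was its own culture; the spread behind every p-value is that between arrays and may be technical. The EEF1D-1357 arrays shared slide 1 with control replicate 2, and the EEF1D-1893 arrays shared slide 2 with control replicate 1.

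Each array holds 1 Cy3-labelled sample. Levels are given as log2 of the scanner's processed intensity minus the array's 75th percentile, so that a level of 0 is the 75th percentile and 1 unit is a doubling, and levels of different probes are not set against each other. Differences were tested with limma over all 30702 probes, with Benjamini-Hochberg adjustment, and a probe was called at a two-sided adjusted p below 0.05. Between 60.7% and 71.6% of probes were well above background per array, and no spot was saturated. Control replicate 1 stood apart: its 75th percentile was an intensity of 1276, against 1612 to 2100 on the other 7 arrays, and its median correlation with them was 0.965, against 0.974 to 0.980. The targeted gene, EEF1D (probe A_73_115715), stood at 5.97, 5.85 and 5.09 in the EEF1D-1357 arrays and at 5.99, 5.74 and 5.76 in the EEF1D-1893 arrays, against 7.11 and 6.14 in the control arrays. Every shRNA array was below both control arrays, an order that 9.99% of all tested probes had. The EEF1D log2 fold change was -0.89 ± 0.32 (SE, 6 against 2 arrays), with a limma adjusted p of 0.219. Its size depended on the control array: control replicate 1 stood at 7.11, whereas control replicate 2, at 6.14, lay nearer the shRNA arrays. Epithelial markers were measured in all groups: 9 of 10 luminal markers (all but ELF5) and 9 of 10 basal or myoepithelial markers (all but OXTR, with 2 arrays) were well above background on all 8 arrays. The filter on dim probes, which asks for 2 arrays, was also passed by 9 of 10 fibroblast and 7 of 10 leukocyte markers, but not by PECAM1, KDR, TEK, TIE1 and EMCN of 8 endothelial markers or ADIPOQ, LEP and LPL of 6 adipocyte markers.

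The probes shown here are those behind the main contrasts described further on: NRG1, whose probes lay lowest in the EEF1D-1357 arrays, EGFR, whose probes disagreed, and BTC, whose brightest probe had no overlap between the hairpins. They are the sequences printed in the scanner files, 5′ to 3′, all in lower case because no stretch of them is singled out. Positions are on Btau_3.1, as in the files. NRG1 A_73_P035656 maps to the plus strand at chr27:30588733-30713562, A_73_P110726 to chr27:30743201-30745960 and A_73_P109641 to chr27:30746348-30746407; the spans of 124830 and 2760 bases of the first pair are longer than the 60 bases of the probe, so these probes join separated pieces of the gene. The remaining NRG1 probe, A_73_115586, lies between them at chr27:30726385-30726444. The EGFR probes shown map to the minus strand at chr22:683501-683560 (A_73_P102661) and chr22:614074-614133 (A_73_114788). BTC A_73_100868 maps to the minus strand at chr6:92789820-92791884, a span of 2065 bases. An exon annotation of this build was not used here.
NRG1 A_73_P035656: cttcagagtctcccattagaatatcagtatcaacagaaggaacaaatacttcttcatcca
NRG1 A_73_P110726: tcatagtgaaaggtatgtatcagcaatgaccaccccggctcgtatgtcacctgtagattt
NRG1 A_73_P109641: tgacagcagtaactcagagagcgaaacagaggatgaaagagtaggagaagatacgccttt
EGFR A_73_P102661: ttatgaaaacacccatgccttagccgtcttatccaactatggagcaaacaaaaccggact
EGFR A_73_114788: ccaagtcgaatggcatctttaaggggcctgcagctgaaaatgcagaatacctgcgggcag
BTC A_73_100868: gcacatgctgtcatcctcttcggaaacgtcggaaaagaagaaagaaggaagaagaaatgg

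NRG1, the ligand of ERBB3 and ERBB4, held the 4 smallest p-values of the 18 probes for EEF1D-1357 against control: all 4 of its probes were lowest in the EEF1D-1357 arrays, and 2 of the 4 were lower in all 6 shRNA arrays than in either control array. Over all probes, 19% had every EEF1D-1357 array below both controls and 13.2% had them below every EEF1D-1893 array. All 6 shRNA arrays were below both controls for 9.99%, and the 4 NRG1 probes measure 1 gene. The brightest NRG1 probe, A_73_115586, stood at 1.56, 1.42 and 1.85 in the EEF1D-1357 arrays and at 2.53, 2.20 and 2.36 in the EEF1D-1893 arrays, against 2.54 and 2.94 in the control arrays. The 3 groups did not overlap, although the highest EEF1D-1893 array nearly met the lower control array. Its level in EEF1D-1357 arrays was 45.7% of the control level, a log2 fold change of -1.13 ± 0.20 (SE, 3 against 2 arrays) with an unadjusted p of 0.000743 and an adjusted p of 0.133 in limma. For EEF1D-1893 against control the log2 fold change was -0.37 ± 0.20 (adjusted p 0.429).

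Probe A_73_P110726, further along the gene, gave levels of -1.49, -1.34 and -1.06 in the EEF1D-1357 arrays and of -0.81, -0.88 and -0.67 in the EEF1D-1893 arrays, against -0.04 and -0.20 in the control arrays. Here too the groups were apart, with each EEF1D-1893 array between the other groups. The log2 fold change was -1.18 ± 0.17 for EEF1D-1357 against control (adjusted p 0.124 in limma, rank 43 of 30702 by p) and -0.67 ± 0.17 for EEF1D-1893 against control (adjusted p 0.215). Over both hairpins it was -0.92 ± 0.15, 52.7% of the control level, with an adjusted p of 0.117.

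The other NRG1 probes showed the EEF1D-1357 arrays low and the EEF1D-1893 arrays close to control. Probe A_73_P035656 stood at -0.77, -0.83 and -0.95 in the EEF1D-1357 arrays and at -0.16, -0.14 and -0.22 in the EEF1D-1893 arrays, against -0.25 and -0.02 in the control arrays. Its log2 fold change was -0.72 ± 0.14 for EEF1D-1357 against control (adjusted p 0.149) and -0.04 ± 0.14 for EEF1D-1893 against control (adjusted p 0.913), with a 95% confidence interval of -0.37 to 0.29 for the second. Probe A_73_P109641 stood at 1.62, 1.72 and 1.96 in the EEF1D-1357 arrays and at 2.08, 2.17 and 2.28 in the EEF1D-1893 arrays, against 2.15 and 2.49 in the control arrays. Only its EEF1D-1357 arrays were apart from the controls, with a log2 fold change of -0.55 ± 0.17 (adjusted p 0.210), whereas the EEF1D-1893 value was -0.14 ± 0.17 (adjusted p 0.731). Over the 8 arrays the 4 NRG1 probes had pairwise Pearson correlations of 0.75 to 0.93, described over arrays that share groups and scaling.

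**Figure D1:**
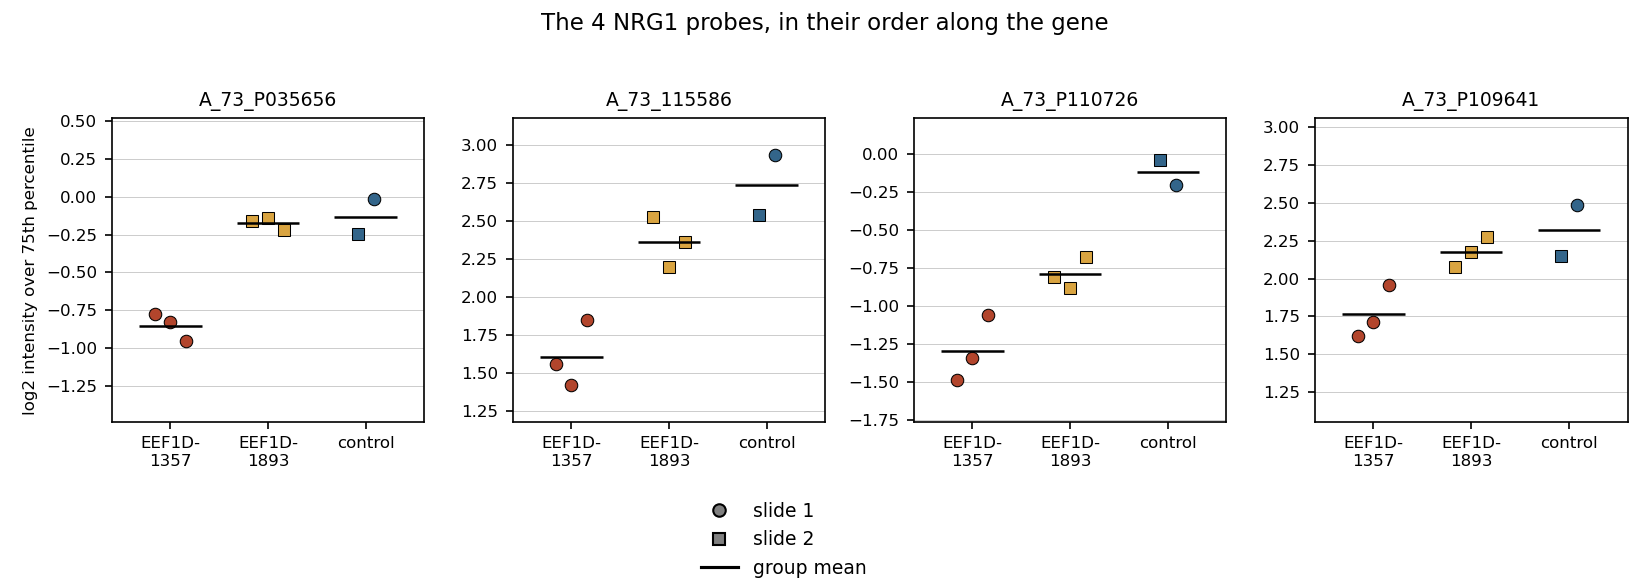
Level of each NRG1 probe (log2 intensity over the array's 75th percentile, linear axis of the same span in each panel) in the EEF1D-1357, EEF1D-1893 and control arrays; each point is 1 array, its shape gives the slide and the line is the group mean. All EEF1D-1357 arrays lie below all EEF1D-1893 and control arrays for all 4 probes, and the EEF1D-1893 arrays lie clearly below the controls for A_73_P110726.

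Set directly against each other, the hairpins differed at NRG1 by log2 fold changes of -0.76 ± 0.18 (A_73_115586), -0.51 ± 0.15 (A_73_P110726), -0.68 ± 0.13 (A_73_P035656) and -0.41 ± 0.15 (A_73_P109641) for EEF1D-1357 against EEF1D-1893, none called (limma adjusted p 0.744 to 0.775). Those arrays lay on separate slides, so hairpin and slide could be told apart only through the 1 control array on each. Within slide 1, EEF1D-1357 minus control was -1.33 for A_73_115586, -1.10 for A_73_P110726, -0.83 for A_73_P035656 and -0.72 for A_73_P109641. Within slide 2, EEF1D-1893 minus control was -0.18, -0.75, 0.07 and 0.03 for the same probes, so that A_73_P110726 had by far the largest difference of the 4 there. With slide as a block, A_73_115586 (adjusted p 0.0467) and A_73_P110726 (adjusted p 0.0325) were called for both hairpins against control, where 7.1% of all probes were called. That fit takes the whole difference between the 2 control arrays as slide, so the spread behind these p-values leaves that difference out. Without control replicate 2, which leaves 1 control array, the log2 fold change of A_73_P110726 was -1.00 over both hairpins. For EEF1D-1357 the values were then -0.93 (A_73_115586), -0.60 (A_73_P035656) and -1.26 (A_73_P110726). The gap was smallest for A_73_P109641, with an EEF1D-1357 mean of 1.77 against 2.15 in control replicate 1.

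In bulk cells, fewer cells of a type and less RNA per cell cannot be told apart. Markers of fibroblasts, which could be carried over in a culture from tissue blocks, moved with NRG1 for EEF1D-1357 against control: 9 of 10 passed the filter (all but PDGFRB), and 0 of 9 were higher and 9 lower, with a median log2 fold change of -0.58, against -0.08 over all probes. Only 4 of the 9 were well above background on all 8 arrays, with log2 fold changes of -0.16 (COL1A1), -0.58 (COL3A1), -0.13 (DCN) and -0.09 (TWIST1). COL1A2, LUM and THY1 were so on 4 arrays, FAP on 6 and PDGFRA on 7, so a marker could pass through the groups where it was high, and the counts are a description. For EEF1D-1893 against control 1 was higher and 8 were lower (median -0.18). For EEF1D-1357 against EEF1D-1893, 1 was higher and 8 were lower (median -0.45), but with slide as a block 4 were higher and 5 lower (median -0.03). Their summed intensity, as a multiple of the array's 75th percentile, was 1.61 to 1.79 in the EEF1D-1357 arrays and 1.93 to 4.18 in the EEF1D-1893 arrays, against 2.604 to 3.099 in the control arrays. COL1A2, a fibroblast collagen, ranged over the arrays from -7.26 to 0.82. Without control replicate 1, 3 of the 9 were higher and 6 lower for EEF1D-1357 against control, with a median of -0.29. Basal and myoepithelial markers were lower in 8 of 10 for EEF1D-1357 against control (median -0.45). In the same comparison luminal markers were lower in 6 of 9 (median -0.28) and leukocyte markers in 5 of 7 (median -0.30), so the direction was not particular to fibroblasts. Endothelial markers were lower in 2 of 3 (median -0.15) and adipocyte markers in 1 of 3 (median 0.06). The part of these markers in the NRG1 values was not tested.

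EGFR, the founding receptor of the family, gave small values whose direction depended on the probe. The brightest probe, A_73_P102661, stood at -1.25, -1.31 and -1.49 in the EEF1D-1357 arrays and at -1.26, -1.34 and -1.65 in the EEF1D-1893 arrays, against -1.15 and -1.07 in the control arrays. All 6 shRNA arrays were below both controls, as for 9.99% of all probes, by a log2 fold change of -0.27 ± 0.15 (adjusted p 0.371 in limma, 95% confidence interval -0.63 to 0.08). The value was -0.28 within slide 1 and -0.27 within slide 2.

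The other EGFR probes did not share that order. A_73_P119111 stood at -1.28, -1.29 and -1.38 in the EEF1D-1357 arrays and at -1.19, -1.37 and -1.40 in the EEF1D-1893 arrays, against -1.83 and -1.21 in the control arrays, a log2 fold change of 0.20 ± 0.18 (adjusted p 0.578). Control replicate 1 was the low array: without it the value was -0.11, and against it alone the value was 0.51. A_73_114788 stood at -3.66, -3.79 and -3.81 in the EEF1D-1357 arrays and at -3.54, -3.69 and -2.58 in the EEF1D-1893 arrays, against -3.79 and -3.54 in the control arrays, a log2 fold change of 0.16 ± 0.29 (adjusted p 0.798). EEF1D-1893 replicate 3 was about 1 unit above every other array for that probe. Over the 8 arrays A_73_P102661 had Pearson correlations of -0.02 with A_73_P119111 and -0.62 with A_73_114788. The Spearman correlations of the same pairs were 0.40 and -0.02. EEF1D-1893 replicate 3 was the lowest array for A_73_P102661 and the highest for A_73_114788. The 3 probes thus gave no common EGFR level. Among 10412 other named genes, those whose brightest probe was most like A_73_P102661 over the 8 arrays were SORT1 (Pearson r 0.983), ZC3H7B (0.964) and GIGYF2 (0.950), chosen as the highest of many and given as a description.

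ERBB3, which has little kinase activity of its own and signals by pairing with another receptor, depended on the control array used. Its brightest probe, A_73_120913, stood at 1.12, 1.52 and 1.41 in the EEF1D-1357 arrays and at 1.02, 0.99 and 0.64 in the EEF1D-1893 arrays, against 2.04 and 0.95 in the control arrays. The controls differed by more than the hairpin groups did, with replicate 1 above and replicate 2 below most shRNA arrays. The log2 fold change over both hairpins was -0.38 ± 0.29 (adjusted p 0.505). With control replicate 2 left out, this became -0.92. With control replicate 1 left out, the sign turned, to 0.17.

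All 3 EEF1D-1357 arrays were above all 3 EEF1D-1893 arrays for this ERBB3 probe, as for 6.96% of all probes, by a log2 fold change of 0.46 ± 0.29 (adjusted p 0.778). Within slides, the EEF1D-1357 value was 0.40 and the EEF1D-1893 value was -1.15, the second against control replicate 1 alone. With slide as a block that second value, with the same lone control, was called (adjusted p 0.0337), where 14.8% of all probes were called. The dim probe A_73_P399221 tracked A_73_120913 (Pearson r 0.88 over 8 arrays) and stood at -4.79, -4.71 and -4.95 in the EEF1D-1357 arrays and -4.71, -5.20 and -5.39 in the EEF1D-1893 arrays, against -3.81 and -4.87 in the control arrays. Its log2 fold change was -0.62 ± 0.30 (adjusted p 0.315), and -1.15 against control replicate 1 alone. With slide as a block it was -1.29 for EEF1D-1893 against control and was called (adjusted p 0.0374), among the 14.8% of all probes called there. This value again has control replicate 1 as its only control, so it is no separate result. The remaining ERBB3 probe, A_73_P090716, was well above background on 3 of 8 arrays and stood at -6.22, -2.74 and -5.75 in the EEF1D-1357 arrays and at -6.11, -6.43 and -5.63 in the EEF1D-1893 arrays, against -5.66 and -5.94 in the control arrays. EEF1D-1357 replicate 2 was far above the other 7 arrays, and the log2 fold change over both hairpins was 0.32 ± 0.84 (adjusted p 0.863).

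ERBB2, the receptor with no ligand of its own, had no probe under that name, and 2 probes are described in the files as erbB-2-like (LOC505709), a predicted RNA, which may not be ERBB2 itself. The first, A_73_100116, stood at 2.66, 2.49 and 2.51 in the EEF1D-1357 arrays and at 2.20, 2.26 and 2.27 in the EEF1D-1893 arrays, against 2.91 and 2.19 in the control arrays, with a log2 fold change of -0.15 ± 0.19 over both hairpins (adjusted p 0.693). The second, A_73_P065731, had a log2 fold change of -0.02 ± 0.16 (adjusted p 0.963).

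Amphiregulin, the ligand of mammary duct outgrowth, is reached only by a probe that the files name AREGB (A_73_104964) and whose accession RefSeq (ARS-UCD2.0) names AREG. It stood at 3.49, 3.57 and 2.90 in the EEF1D-1357 arrays and at 2.99, 3.19 and 2.90 in the EEF1D-1893 arrays, against 2.74 and 2.89 in the control arrays. All 6 shRNA arrays were above both controls, although the lowest array of each hairpin was only just above the higher control, and 8.14% of all probes had every shRNA array above both controls. The log2 fold change was 0.50 ± 0.23 for EEF1D-1357 (adjusted p 0.302), 0.21 ± 0.23 for EEF1D-1893 (adjusted p 0.692) and 0.36 ± 0.20 over both (adjusted p 0.380). Transforming growth factor alpha is reached by probe A_73_P082231, through its transcript accession, and had -2.16, -1.97 and -1.10 in the EEF1D-1357 arrays and -1.57, -1.64 and -1.89 in the EEF1D-1893 arrays, against -1.69 and -2.02 in the control arrays. The groups overlapped, with a log2 fold change of 0.14 ± 0.28 (adjusted p 0.824).

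BTC, a ligand that binds EGFR and ERBB4, had higher levels in the EEF1D-1357 than in the EEF1D-1893 arrays at its brightest probe, but the hairpins lay on separate slides, and with slide as a block the difference turned direction at 2 of the 3 BTC probes. Its brightest probe, A_73_100868, stood at -1.03, -0.43 and -1.66 in the EEF1D-1357 arrays and at -1.71, -2.20 and -1.83 in the EEF1D-1893 arrays, against -1.41 and -1.00 in the control arrays. The EEF1D-1893 arrays were below all others, although EEF1D-1357 replicate 3 came close to the highest of them. Over all probes, 15.6% had every EEF1D-1893 array below both controls, and 6.96% had every EEF1D-1357 array above every EEF1D-1893 array. The log2 fold change was 0.88 ± 0.32 for EEF1D-1357 against EEF1D-1893 (adjusted p 0.775), -0.71 ± 0.36 for EEF1D-1893 against control (adjusted p 0.397) and 0.17 ± 0.36 for EEF1D-1357 against control (adjusted p 0.822). With slide as a block the difference between hairpins was 0.46 ± 0.66 (adjusted p 0.702).

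The dimmer BTC probes tracked the bright one from array to array, with Pearson correlations of 0.77 and 0.88 over 8 arrays. A_73_P041286 stood at -1.68, -1.18 and -2.59 in the EEF1D-1357 arrays and at -2.60, -2.96 and -2.63 in the EEF1D-1893 arrays, against -3.60 and -1.42 in the control arrays. Its lowest array was a control array and its highest was EEF1D-1357 replicate 2. Its log2 fold change for EEF1D-1357 against EEF1D-1893 was 0.92 ± 0.58 (adjusted p 0.780) and turned to -1.27 ± 0.73 with slide as a block (adjusted p 0.328). A_73_P438321 was well above background on 5 of 8 arrays and stood at -4.32, -3.86 and -5.74 in the EEF1D-1357 arrays and at -5.48, -5.59 and -5.26 in the EEF1D-1893 arrays, against -5.64 and -4.48 in the control arrays. EEF1D-1357 held both its highest and its lowest array. The log2 fold change between hairpins was 0.80 ± 0.50 (adjusted p 0.778). Blocking by slide turned it to -0.35 ± 0.96 (adjusted p 0.854).

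EREG and HBEGF are EGFR ligands that the ERK pathway itself induces, and for both the groups overlapped. EREG (A_73_P087826, chr6:92399929-92399988) stood at -1.87, -1.82 and -2.38 in the EEF1D-1357 arrays and at -2.07, -2.10 and -2.71 in the EEF1D-1893 arrays, against -1.50 and -2.53 in the control arrays. Its log2 fold change was -0.14 ± 0.32 (adjusted p 0.836), with control replicate 1 above and control replicate 2 below most shRNA arrays. HBEGF (A_73_P052476, chr7:50856505-50856564) stood at -2.67, -2.31 and -2.47 in the EEF1D-1357 arrays and at -2.54, -2.43 and -2.33 in the EEF1D-1893 arrays, against -2.83 and -2.45 in the control arrays. For HBEGF the log2 fold change was 0.18 ± 0.16 (adjusted p 0.576), and its 95% confidence interval ran from -0.20 to 0.56. Control replicate 1 was its lowest array, and without it the value was -0.01.

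ERRFI1 encodes MIG6, a feedback inhibitor that binds the kinase domains of EGFR and ERBB2. Its brightest probe, A_73_100293 (chr16:42508651-42508710), stood at 1.27, 1.21 and 1.77 in the EEF1D-1357 arrays and at 1.89, 1.23 and 2.29 in the EEF1D-1893 arrays, against 1.49 and 2.06 in the control arrays. The 3 groups overlapped, and within each hairpin group replicate 2 was the lowest and replicate 3 the highest array. The log2 fold change was -0.36 ± 0.35 for EEF1D-1357 (adjusted p 0.598) and 0.03 ± 0.35 for EEF1D-1893 (adjusted p 0.976). All 3 ERRFI1 probes followed each other across the arrays, with Pearson correlations of 0.98 to 0.99, and the other 2 had log2 fold changes over both hairpins of -0.25 (A_73_P255366, adjusted p 0.685) and -0.25 (A_73_P462686, adjusted p 0.718).

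**Figure D2:**
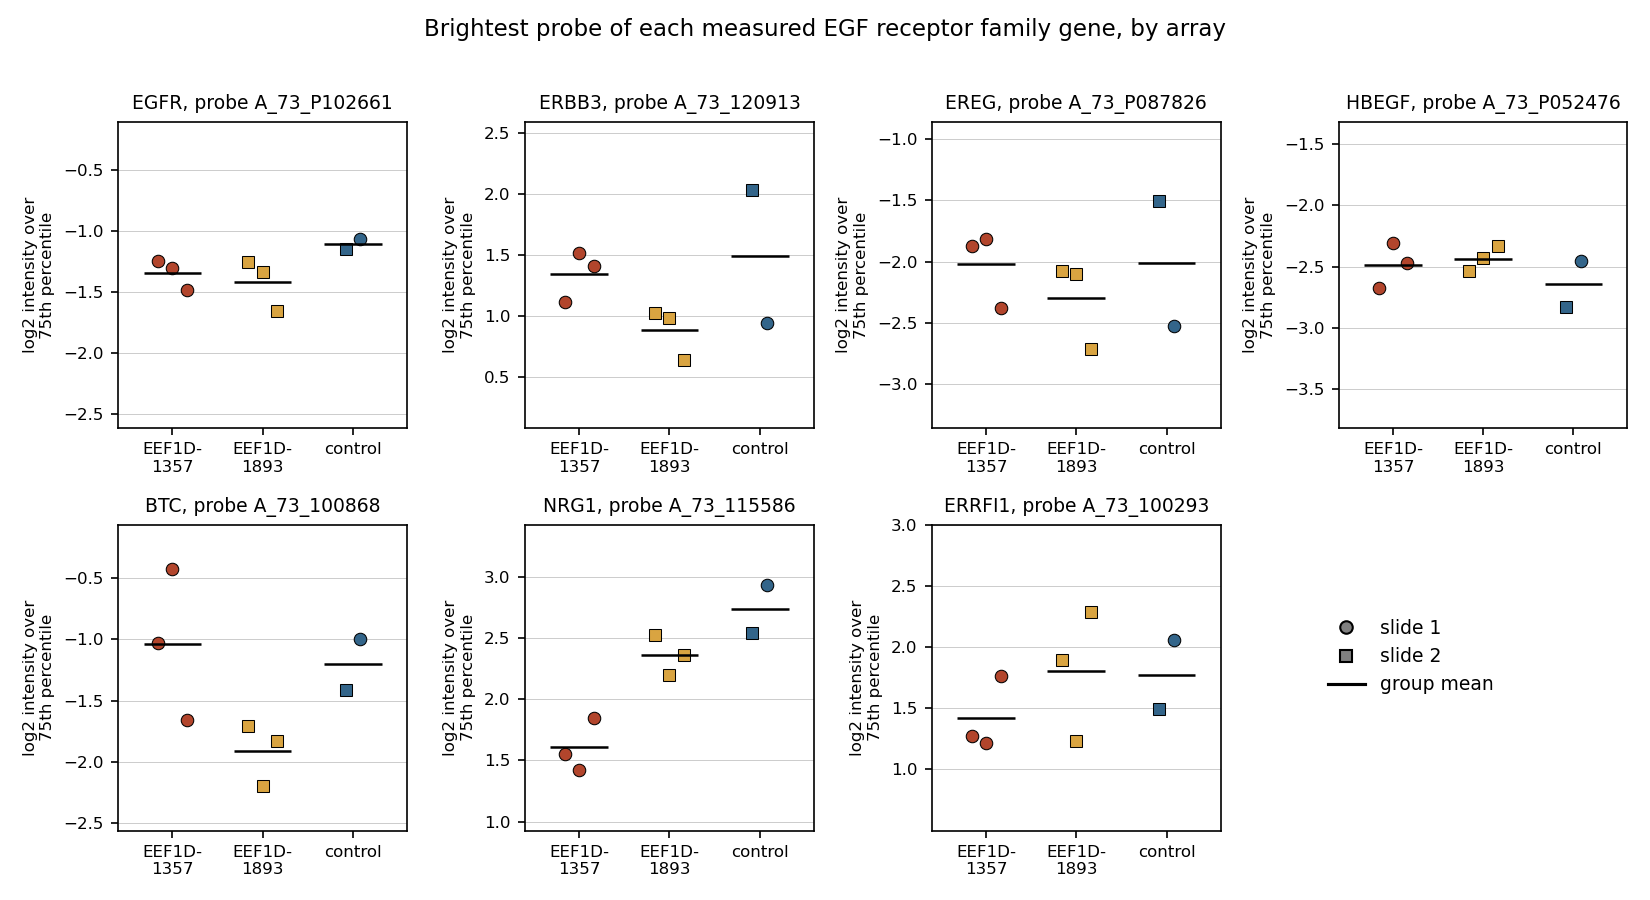
Level of the brightest probe of each of the 7 genes (log2 intensity over the array's 75th percentile; each panel spans 2.5 units) in the EEF1D-1357, EEF1D-1893 and control arrays; each point is 1 array, its shape gives the slide and the line is the group mean. NRG1 is the panel in which the EEF1D-1357 arrays lie apart from all others, and in the ERBB3 and EREG panels 1 control array is the highest of the 8 and the other lies below 5 of the 6 shRNA arrays.

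Counted over the 18 probes, none was called in any comparison (limma, adjusted p below 0.05), where the percentage called among all probes was 0% in each of the 4 comparisons. At an unadjusted p below 0.05, 3 of 18 (all NRG1) passed for both hairpins against control, against 18.4% of all probes, 4 of 18 (all NRG1) for EEF1D-1357 against control, against 17.6%, and 1 of 18 (NRG1 A_73_P110726) for EEF1D-1893 against control, against 15% of all probes. These shares of the members, 16.7%, 22.2% and 5.56%, were close to or below those of all probes. The 3 comparisons share the same 2 control arrays. For EEF1D-1357 against EEF1D-1893, 5 of 18 passed (27.8%; the 4 NRG1 probes, lower, and BTC A_73_100868, higher), against 6.23% of all probes, and the 4 NRG1 probes measure 1 gene.

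By the separation of arrays, 3 of 18 probes (NRG1 A_73_115586, NRG1 A_73_P110726 and EGFR A_73_P102661) had all 6 shRNA arrays below both controls, against 9.99% of all probes. All 3 EEF1D-1357 arrays were below both controls for 5 of 18 probes, against 19% of all probes, and all 3 EEF1D-1893 arrays for 4 of 18, against 15.6%. None of the 18 had every array of a hairpin above both controls. The EEF1D-1357 arrays were all below the EEF1D-1893 arrays for 4 of 18 probes (the NRG1 probes), against 13.2% of all probes. They were all above for 3 of 18 (BTC A_73_100868, BTC A_73_P041286 and ERBB3 A_73_120913), against 6.96%. The BTC probes measure 1 gene and were barely apart. For A_73_P041286, EEF1D-1357 replicate 3 stood at -2.59 and EEF1D-1893 replicate 1 at -2.60. The median log2 fold change of the 18 probes over both hairpins was -0.25, against -0.06 over all probes, and 12 of 18 were below 0. Without control replicate 1 the members' median was -0.46, against 0.04 over all probes, and without control replicate 2 it was 0.02, against -0.17.

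**Figure D3:**
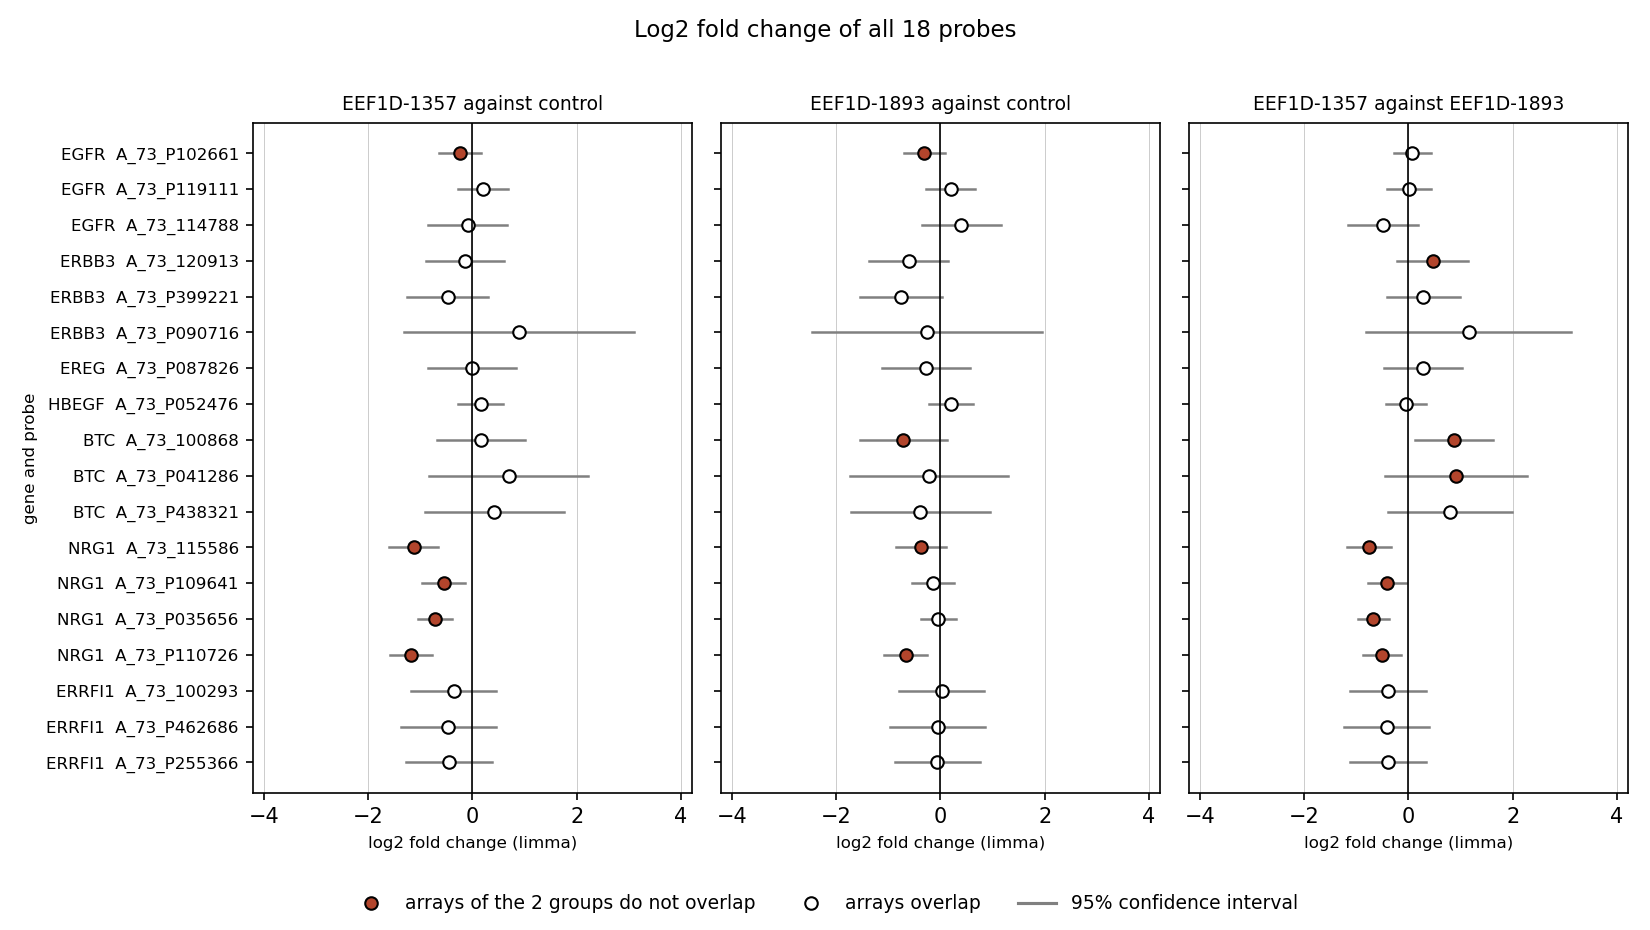
Log2 fold change (limma, points) with its 95% confidence interval (lines) of all 18 probes for EEF1D-1357 against control, EEF1D-1893 against control and EEF1D-1357 against EEF1D-1893; filled points mark probes whose arrays do not overlap between the groups compared. The NRG1 intervals lie below 0 for EEF1D-1357 against control in all 4 probes and for EEF1D-1893 against control only in A_73_P110726.

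The other genes of the pathway, taken from lists chosen with earlier results of these data known, showed no called gene in any of the 4 comparisons with all arrays. Against control replicate 1 alone, 2 of 12 genes of ligand release were called (both lower), 7 of 24 adaptors and core kinases (5 higher, 2 lower), 11 of 28 genes of downregulation and feedback (5 higher, 6 lower) and 5 of 25 early response genes (1 higher, 4 lower) over both hairpins, where 22.7% of all probes were called. With slide as a block, 8 genes of the lists (ADAM9, CRKL, MAP2K2, CBL, SOCS4, ETV5, PLAUR and EGR2) were called over both hairpins, where 7.1% of all probes were called. Of the remaining receptors and ligands of the family, 2 of 6 (EGF and NRG3) were named on the array, and neither was well above background on enough arrays to be tested. Of 12 genes of ligand release, 4 were higher and 8 lower over both hairpins, with a median log2 fold change of -0.13, against -0.06 over all probes, and the median was 0.08 without control replicate 1. At an unadjusted p below 0.05, 1 was higher and 1 was lower. ADAM9, a membrane protease able to shed HBEGF, stood at 0.01, 0.14 and 0.44 in the EEF1D-1357 arrays and at -0.27, -0.32 and -0.27 in the EEF1D-1893 arrays, against 1.09 and 0.31 in the control arrays. Its log2 fold change was -0.75 ± 0.22 (adjusted p 0.178), and -0.36 without control replicate 1. ADAM10, the main sheddase of betacellulin, had 0.28 ± 0.12 (adjusted p 0.263) and CD9, a tetraspanin partner of HBEGF, 0.25 ± 0.16 (adjusted p 0.422), with 0.15 without control replicate 2. The protease ADAM19 stood at -4.72, -4.38 and -4.54 in the EEF1D-1357 arrays and at -2.92, -2.58 and -3.30 in the EEF1D-1893 arrays, against -3.22 and -3.47 in the control arrays. The EEF1D-1357 arrays were below all others by nearly 1 unit, whereas the EEF1D-1893 arrays overlapped the controls. Over all probes, 19% had every EEF1D-1357 array below both controls, by any distance. The ADAM19 value over both hairpins, -0.39 ± 0.21 (adjusted p 0.357), thus joined opposite directions: -1.20 ± 0.23 for EEF1D-1357 (unadjusted p 0.00124, adjusted p 0.145) and 0.42 ± 0.23 for EEF1D-1893 (adjusted p 0.445). Between the hairpins it was -1.62 ± 0.21. The ADAM19 adjusted p of 0.455 (limma) was the smallest value in that comparison, but other probes shared it. Against control replicate 1 alone the EEF1D-1357 value was -1.33.

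Of 24 adaptors and members of the RAS to ERK core, 11 were higher and 13 lower over both hairpins (median -0.08), which turned to 15 higher and 9 lower (median 0.06) without control replicate 1, and 3 were higher and 2 lower at an unadjusted p below 0.05. CRKL, an SH2 and SH3 adaptor, stood at -2.79, -2.70 and -2.81 in the EEF1D-1357 arrays and at -2.89, -3.12 and -3.18 in the EEF1D-1893 arrays, against -5.06 and -3.28 in the control arrays. Control replicate 1 was the far array: the log2 fold change was 1.26 ± 0.40 with both controls (adjusted p 0.195). It was 0.37 when that array was left out and 2.14 when only that array served as control. NCK1, another adaptor, had 0.49 ± 0.16 (adjusted p 0.197), MAP2K2, the kinase MEK2 upstream of ERK, -0.53 ± 0.15 (adjusted p 0.167) and STAT3, a transcription factor that receptors of this family can activate, -0.53 ± 0.16 (adjusted p 0.178). Without control replicate 1 these values were 0.27 for NCK1, -0.34 for MAP2K2 and -0.39 for STAT3, and against that array alone they were 0.72, -0.72 and -0.68.

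Of 28 genes of receptor downregulation and feedback, 13 were higher and 15 lower over both hairpins (median -0.07), which turned to 16 higher and 12 lower (median 0.02) without control replicate 1, and 1 was higher and 4 lower at an unadjusted p below 0.05. CBL, the ubiquitin ligase that marks activated EGFR for degradation, stood at -4.86, -4.63 and -4.33 in the EEF1D-1357 arrays and at -4.28, -4.63 and -4.48 in the EEF1D-1893 arrays, against -3.33 and -3.24 in the control arrays. The shRNA arrays were apart from the controls by nearly 1 unit, and the log2 fold change was -1.25 ± 0.17 (limma adjusted p 0.105). Over all probes, 9.99% had every shRNA array below both controls, by any distance. Either control alone gave nearly the same size, -1.29 against replicate 2 and -1.20 against replicate 1. EPS15, an adaptor of receptor endocytosis, had -0.43 ± 0.12 (adjusted p 0.167) and the ubiquitin ligase CBLC -0.47 ± 0.17 (adjusted p 0.223), with -0.28 for CBLC without control replicate 1. SOCS4, a suppressor that promotes EGFR degradation in human cells, had 0.71 ± 0.22 (adjusted p 0.183), with 0.30 without control replicate 1.

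Of 25 early response genes of ERK signalling, 16 were higher and 9 lower over both hairpins, with a median log2 fold change of 0.11, against -0.06 over all probes, and 4 were higher and 4 lower at an unadjusted p below 0.05. ETV5, an ETS transcription factor, stood at -1.82, -1.63 and -1.81 in the EEF1D-1357 arrays and at -2.03, -2.28 and -1.80 in the EEF1D-1893 arrays, against -1.14 and -0.98 in the control arrays. All shRNA arrays were below both controls, as for 9.99% of all probes, with a log2 fold change of -0.84 ± 0.16 (limma adjusted p 0.127). Against control replicate 1 alone the value was -0.76. PLAUR, the urokinase receptor, stood at 3.06, 3.25 and 2.84 in the EEF1D-1357 arrays and at 2.95, 2.92 and 2.65 in the EEF1D-1893 arrays, against 2.54 and 1.57 in the control arrays, a log2 fold change of 0.89 ± 0.26 (adjusted p 0.175). That value was 1.38 without control replicate 1 and 0.41 without control replicate 2. HMGA2, a chromatin protein, had -0.69 ± 0.21 (adjusted p 0.178), with -0.45 without control replicate 1 and -0.93 against it alone. PHLDA1, a pleckstrin-like protein, had 0.55 ± 0.18 (adjusted p 0.202), with 0.33 without control replicate 2.

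**Figure D4:**
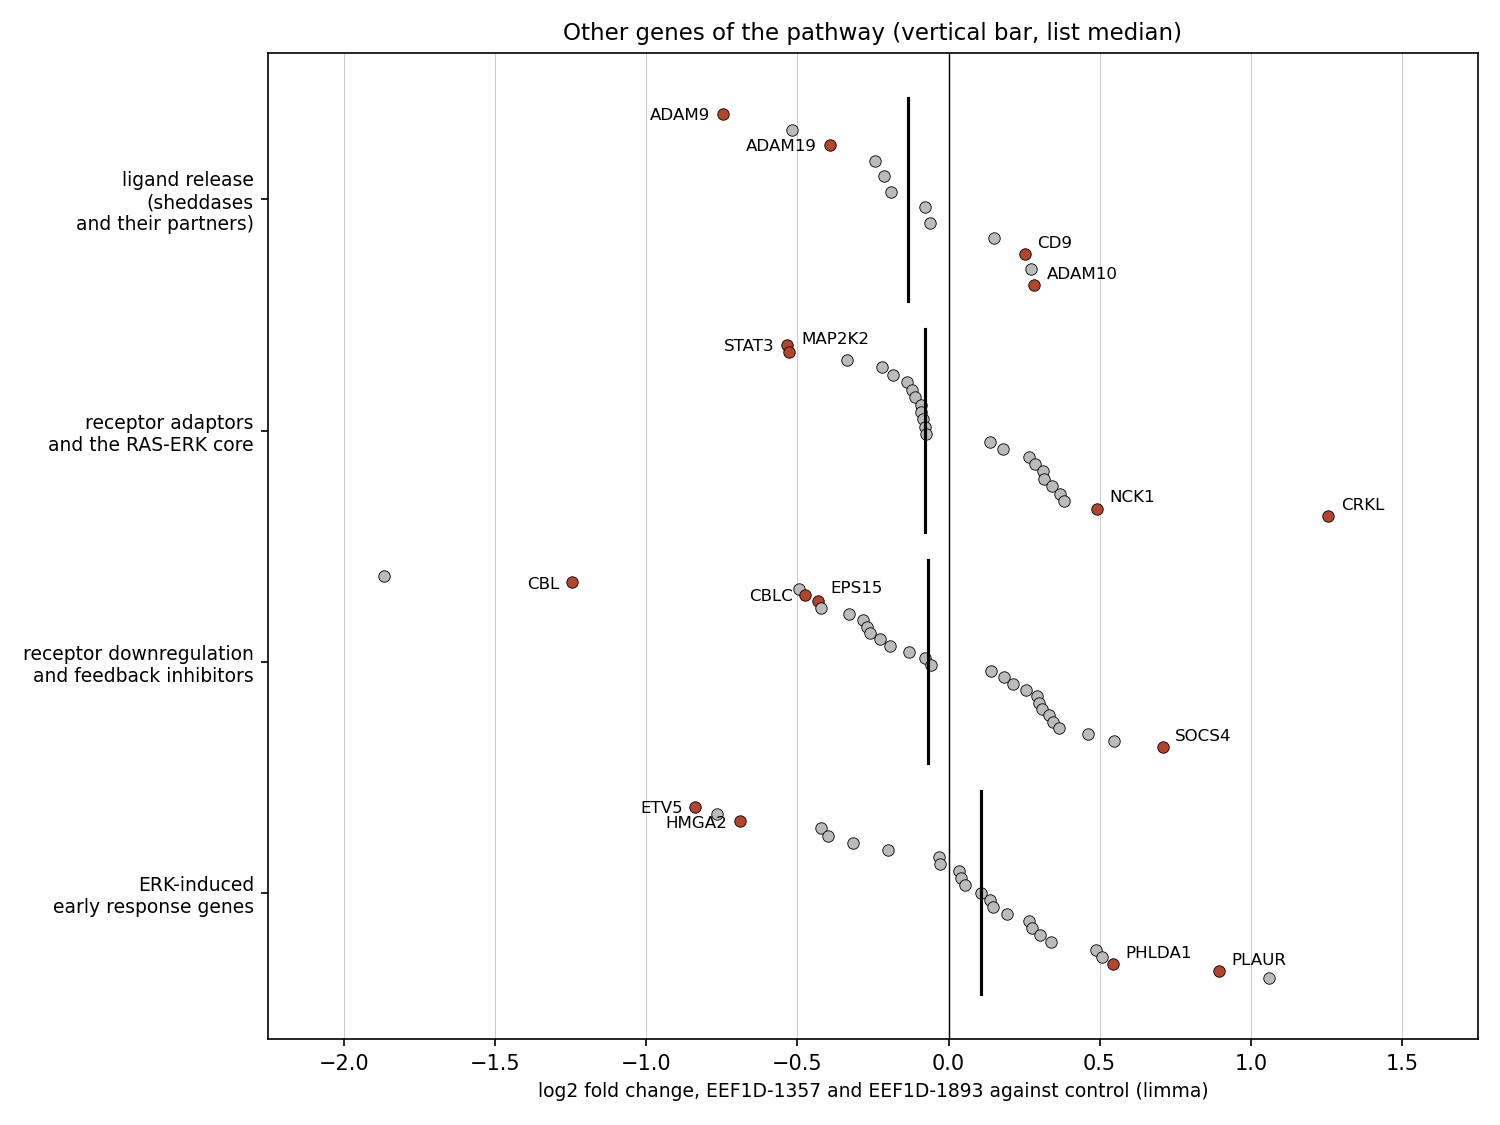
Log2 fold change over both hairpins against control (limma) of each tested gene of 4 pathway lists, by its brightest tested probe; filled and named points are the 4 genes of each list with the smallest p, and the vertical bar is the list median. The medians lie between -0.13 and 0.11, with single genes such as CBL at -1.25 and CRKL at 1.26 away from them.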

How the data were processed

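Total RNA was labelled with Cy3 and hybridised to 1-colour Agilent bovine arrays, 1 sample per array. Per the file headers, Agilent Feature Extraction 10.7.3.1 made the deposited intensity values (the processed signal after background subtraction) and the flags for spots well above background, outlying or saturated; the submitters' processing notes name version 9.1. A deposited table of log2 values from the authors, whose scaling the sources used here do not give, served as an alternative.

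Control spots and 238 probes with outlier flags were left out, leaving 43415. The log2 processed intensity minus each array's 75th percentile was averaged over spots of a probe. Probes above background by the flag on 2 or more arrays (30702) were fitted with limma 3.58.1 (R 4.3.3), 1 coefficient per group over all 8 arrays, with 5 residual degrees of freedom. The fit was tested on simulated data. Array number, 3, 3 and 2 per group, limits the precision. Each gene's brightest probe and each probe of another direction were given per array; from each list the 4 genes of smallest p were named, and for EGFR the 3 most alike genes (AREG had no probe by name). Members and lists were chosen with earlier results of these data known. Gene names of lists came from the files and RefSeq (ARS-UCD2.0).

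Alternatives covered background correction, scaling, filter, probe choice, variance prior, samples, slide, replicate number and threshold. Leaving out each control or blocking by slide for the lists, and all NRG1 probes, were chosen after seeing the data.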

Additional observations from a re-analysis of the deposited data

Results flagged for a closer look

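ADAM19, a membrane protease of the ligand release list, had every EEF1D-1357 array below the mean of the control arrays and every EEF1D-1893 array above it. For EEF1D-1357 against EEF1D-1893 the log2 fold change was -1.62 ± 0.21 (limma adjusted p 0.455). Blocking by slide gave -1.37 ± 0.41 (adjusted p 0.132). The hairpins lay on separate slides, and the difference was not called.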

How the results depend on the processing

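Across the alternative settings, 778 values of the brightest probes and the 4 NRG1 probes were recomputed, of which 721 kept their direction and side of the threshold, 48 turned direction without being called and 9 became called; the cause was not tested. Without a control array the lone control is assumed to vary like the other groups. The calls among all probes, 0 in each comparison as reported, became 8 over both hairpins with probes well above background on all 8 arrays, 34 over both and 10 for EEF1D-1357 at a threshold of 0.1, and 2179 over both, 89 for EEF1D-1357, 4541 for EEF1D-1893 and 8 between hairpins with slide as a block. Leaving out 1 array, they ranged from 0 to 6980 over both, 0 to 6912 for EEF1D-1357, 0 to 4541 for EEF1D-1893 and 0 to 1 between hairpins. Calls among the 18 probes became 2 over both and 2 for EEF1D-1893 with slide as a block, and ranged from 0 to 4, 0 to 4 and 0 to 2 in these 3 comparisons when 1 array was left out. In each comparison with control, the highest of these counts came without control replicate 2. With slide as a block NRG1 was called over both hairpins at -0.75 (A_73_115586) and -0.92 (A_73_P110726), and ERBB3 for EEF1D-1893 at -1.15 (A_73_120913) and -1.29 (A_73_P399221). Blocking by slide takes the difference between the controls as slide, and the ERBB3 values then have control replicate 1 as their only control.

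The uncalled values that turned direction were mostly near 0. For EEF1D-1357 against control, with slide as a block or slide 1 alone, BTC was -0.04, ERBB3 0.40, EREG 0.51 and HBEGF -0.03; EREG was also 0.05 with normexp and quantile normalization, 0.07 with quantile normalization and with the deposited table, and 0.11 with median scaling. For EEF1D-1893, with slide as a block or slide 2 alone, NRG1 A_73_P109641 was 0.03 and A_73_P035656 0.07. A_73_P035656 was also 0.03 with normexp and 0.01 with median scaling. ERRFI1, at 0.03 with all arrays, was -0.03 with normexp but kept its direction on slide 2, at 0.31. Between hairpins EGFR was -0.01 with slide as a block and HBEGF 0.01 with median scaling. Leaving out 1 array, the values over both hairpins ranged from -0.92 to 0.17 for ERBB3, -0.66 to 0.37 for EREG, -0.45 to 0.12 for ERRFI1, -0.01 to 0.37 for HBEGF and -1.00 to -0.84 for NRG1 A_73_P110726. For EEF1D-1357 they ranged from -0.14 to 0.48 for BTC, -0.69 to 0.40 for ERBB3, -0.52 to 0.51 for EREG, -0.03 to 0.34 for HBEGF, -1.33 to -0.93 for NRG1 A_73_115586, -0.83 to -0.60 for A_73_P035656 and -1.30 to -1.08 for A_73_P110726. For EEF1D-1893 they ranged from -1.15 to -0.06 for ERBB3, -0.79 to 0.23 for EREG, -0.26 to 0.31 for ERRFI1, -0.16 to 0.07 for A_73_P035656 and -0.31 to 0.03 for A_73_P109641, and between hairpins from -0.05 to 0.15 for EGFR and -0.14 to 0.04 for HBEGF.

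The arrays share replicate numbers, but the deviations of same-numbered arrays from their group means correlated at -0.07 to 0.16, so the numbers were not taken to pair the samples. With the replicate block 0 probes were called in each comparison, and EREG turned to 0.05 over both hairpins and 0.19 for EEF1D-1357, and ERRFI1 to -0.18 for EEF1D-1893. A fit of only the compared groups is the same fit for both hairpins against control. With 2 control arrays, 1 per slide and hairpin, slide and the spread between controls limit every comparison with control.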
